A study of Mus musculus with 3 samples.

Results

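Among the 33696 genes counted, 7 genes of the Notch pathway were followed through the cell types of mouse spleen. They were matched by symbol and comprise the receptors Notch1 (ENSMUSG00000026923) and Notch2 (ENSMUSG00000027878), the ligand Dll1 (ENSMUSG00000014773), the nuclear factors Rbpj (ENSMUSG00000039191) and Maml2 (ENSMUSG00000031925), and the response genes Dtx1 (ENSMUSG00000029603) and Hes1 (ENSMUSG00000022528). Notch receptors are bound by Delta and Jagged ligands on neighbouring cells and are then cut by ADAM proteases and gamma-secretase. The freed intracellular domain joins the DNA-binding protein Rbpj and a Mastermind-like coactivator to switch on genes such as Hes1 and Dtx1. In mouse spleen, Notch2 and its ligand Dll1 on stromal cells are known to be needed for marginal zone B cells, the B cells at the border of the white pulp, whereas follicular B cells need neither.

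The study prepared 1 single-cell 5′ library for each of 3 groups: MASH-Phe-free, MASH (metabolic dysfunction-associated steatohepatitis) and Chow. The sample labels give only spleen and the group, so the strain, age, diets, number of animals pooled and tumour status of these spleens are not known from the sources used here. The series text describes C3H mice given high-fat and methionine- and choline-deficient diets and implanted with HCA-1 liver tumour cells, but for bulk RNA of tumours. With 1 library per group, no difference between groups could be tested, and no spread between animals is known. The libraries held 16778 MASH-Phe-free, 19219 MASH and 16495 Chow barcodes, with 160115282, 152501471 and 138787602 unique molecular identifiers (UMIs, counted molecules) in that order. Pairs of libraries shared between 72 and 102 barcodes, at most 0.608% of either library.

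A level is the number of UMIs of a gene per 1000000 UMIs (CPM), after adding up all cells that a library has in a class. Levels are compared between classes and libraries, never between genes, since UMIs are not scaled by gene length. B cells were divided by gates on marker UMIs that used none of the 7 genes. The marginal zone gate (Cr2 with Cd1d1 or Cd9, no Fcer2a, no Cd93) held 879 MASH-Phe-free, 948 MASH and 1380 Chow cells. The follicular gate (Fcer2a, no Cd9, no Cd93) held 1813, 2436 and 2383 cells of the same libraries. Marginal zone markers outside the gate (S1pr3, Mzb1, Asb2, Marcks and Tm6sf1) were higher in the marginal zone gate in 3 of 3 libraries. Of the follicular markers outside the gate that are given here, Ighd, Ccr7, Cd55 and Klf2 were lower there in 3 of 3 libraries, and Cxcr5 was higher in 3 of 3. The gates were not pure, since cells falling in B1-like sub-clusters numbered 345 of the marginal zone gate and 246 of the follicular gate. Of the marginal zone gate 1851 cells lay in marginal zone B-like sub-clusters, 821 in unnamed and 111 in follicular B-like ones. Of the follicular gate 3710 lay in follicular B-like sub-clusters, 1646 in unnamed, 577 in transitional B-like and 442 in marginal zone B-like ones.

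Dtx1 and Maml2 were among the genes that differed between marginal zone and follicular cells, and their promoters are shown because a start-site motif search bears on both. Promoter windows of 250 bases before to 50 after a start were available from RefSeq (GRCm38.p6) for 6 of the 7 genes, in 9 windows. No window was available for Hes1, so its promoter was not searched. The letters searched were TGGGAA, the core of the site bound by Rbpj, and TTCCCA, the same letters on the other strand. The windows below are Dtx1 at chr5:120711620-120711919 (minus strand), with no match, and Maml2 at chr9:13662210-13662509 (plus strand), with 1 match in capitals.
Dtx1: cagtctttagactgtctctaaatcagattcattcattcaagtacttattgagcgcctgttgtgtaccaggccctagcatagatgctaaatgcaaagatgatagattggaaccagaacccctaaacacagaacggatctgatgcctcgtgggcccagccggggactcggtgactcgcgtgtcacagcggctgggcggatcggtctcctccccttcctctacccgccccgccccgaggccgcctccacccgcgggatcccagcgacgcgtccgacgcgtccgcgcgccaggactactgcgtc
Maml2: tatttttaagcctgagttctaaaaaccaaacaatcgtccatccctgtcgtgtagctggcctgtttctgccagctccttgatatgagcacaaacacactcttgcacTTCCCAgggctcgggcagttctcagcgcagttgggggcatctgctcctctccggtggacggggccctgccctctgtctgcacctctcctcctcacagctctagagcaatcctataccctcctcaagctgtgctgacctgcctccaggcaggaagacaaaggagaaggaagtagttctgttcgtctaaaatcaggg
The match in Maml2 starts 145 bases before the start site of that transcript, and the other Maml2 window held none. Rbpj itself was the other gene with a match, in both of its windows, which overlap and share 1 of its 2 sites. In all, 3 of 9 windows held the letters, beside 25.6% of the 32851 windows of the table.

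Marginal zone cells carried more Dtx1, Hes1 and Maml2 RNA than follicular cells, while Notch2, the receptor, was not called different. Dtx1, which encodes a ubiquitin ligase of the Deltex family that acts on Notch, was at 399, 396 and 419 CPM in marginal zone cells of the MASH-Phe-free, MASH and Chow libraries, against 166, 153 and 143 CPM in follicular cells. The lowest marginal zone value was thus above the highest follicular one. The ratio was 2.41 (95% counting interval 2.29 to 2.53), 2.58 (2.47 to 2.71) and 2.94 (2.81 to 3.07) in the same order of libraries. Hes1, a transcriptional repressor and a classical Notch target, was at 50.6, 56.1 and 66.7 CPM in marginal zone cells, against 38.1, 35.4 and 33.5 CPM in follicular cells. These groups did not overlap either, but the ratio differed more between libraries, at 1.33 (1.17 to 1.51), 1.58 (1.42 to 1.76) and 1.99 (1.80 to 2.20). Maml2, a Mastermind-like coactivator, was at 746, 755 and 852 CPM in marginal zone cells, against 488, 495 and 498 CPM in follicular cells.

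The test of these differences used edgeR's quasi-likelihood fit to the summed counts of 5 B subsets in 3 libraries, with the library as a block. In this test 3 of the 6 members that passed the filter on low counts were higher in marginal zone cells, beside 13.4% of the 9936 genes tested, and 0 were lower, beside 10.6%. Dtx1 was higher by a log2 fold change of 1.43 (SE 0.10, Benjamini-Hochberg adjusted p = 7.18e-08). Hes1 was higher by 0.74 (SE 0.10, adjusted p = 5.87e-05) and Maml2 by 0.70 (SE 0.10, adjusted p = 5.78e-05). The block takes out each library's own level, so the p-values do not measure the spread between libraries. They rest on how the differences between the 5 subsets varied from library to library. The 3 libraries also differ in group, and both gates of a library share its preparation.

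The receptors did not pass this test. Notch2 was at 151, 149 and 151 CPM in marginal zone cells of the MASH-Phe-free, MASH and Chow libraries, against 143, 155 and 149.6 CPM in follicular cells, and the 2 ranges overlapped. Its log2 fold change was 0.05 (SE 0.10, edgeR adjusted p = 0.81). Notch1, the receptor that drives the T-cell fate in the thymus, was low in both gates, at 9.90, 11.2 and 12.1 CPM in marginal zone cells against 11.2, 9.36 and 8.99 CPM in follicular cells (log2 fold change 0.22, SE 0.21, edgeR adjusted p = 0.50). Rbpj also failed the test, at 30.8, 34.7 and 35.0 CPM against 30.7, 33.5 and 35.0 CPM (log2 fold change 0.05, SE 0.06, edgeR adjusted p = 0.61). Dll1, the ligand, was below the filter. It had 5, 12 and 10 UMIs in marginal zone cells, against 38, 59 and 58 UMIs in follicular cells, and its ratio of CPM was 0.189, 0.366 and 0.209 with every counting interval below 1.

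**Figure D1:**
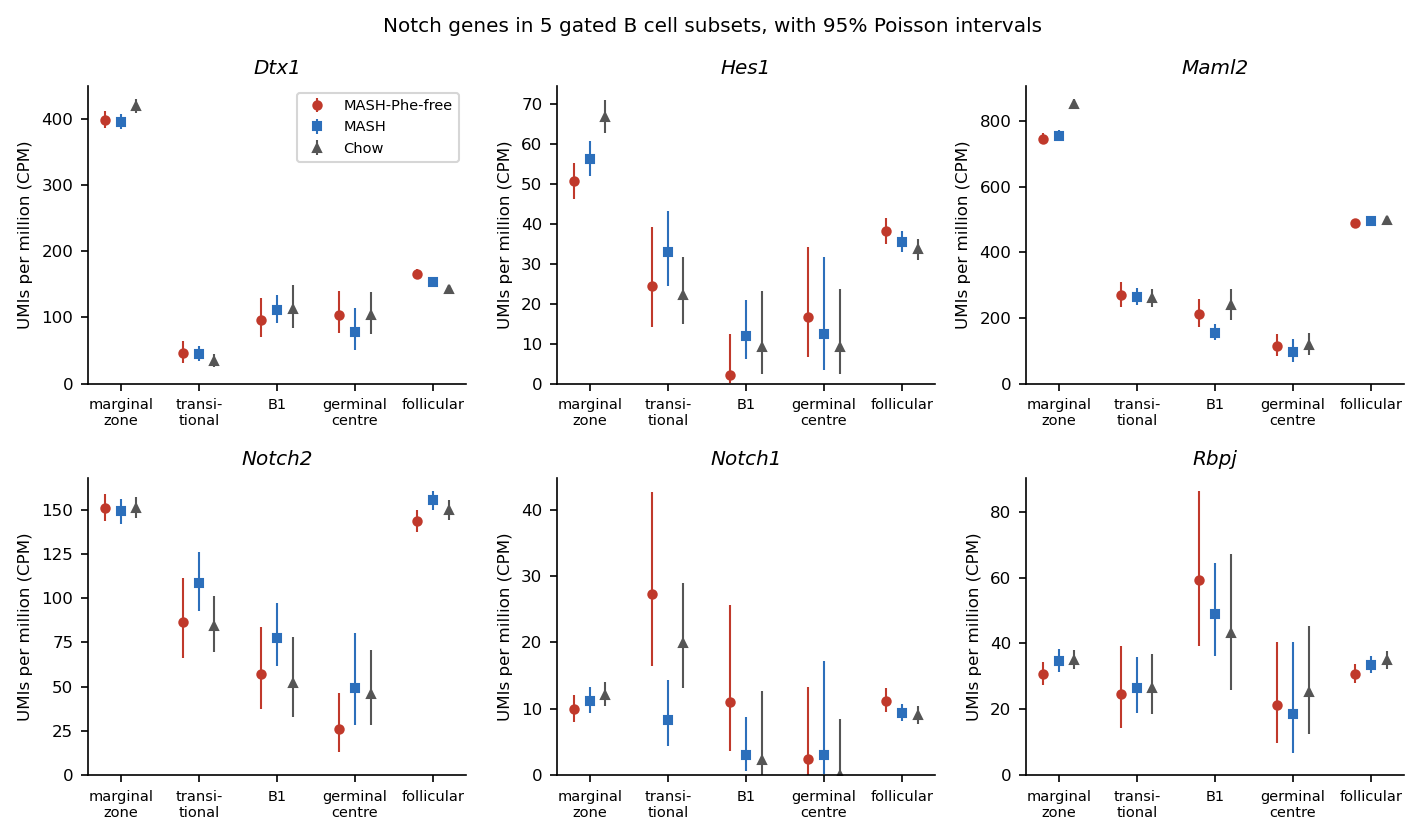
Level of 6 Notch genes (CPM, vertical axes from 0) in 5 gated B cell subsets. Points are single libraries (MASH-Phe-free, MASH, Chow from left to right) and bars are 95% Poisson intervals. Dtx1 and Maml2 stand highest in marginal zone cells in all 3 libraries, and Notch2 stands at 143 to 155 CPM in both the marginal zone and the follicular gate.

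The other B subsets carried less of most members than follicular cells did. Transitional cells (Cd93 and Vpreb3, no Cd9), the immature B cells that arrive from bone marrow, numbered 100 MASH-Phe-free, 201 MASH and 173 Chow cells. Their Dtx1 was at 46.1, 44.3 and 33.95 CPM, below every follicular value. In the same edgeR fit 4 of 6 members were lower in transitional than in follicular cells, beside 12.1% of genes, and 0 were higher, beside 12.2%. The log2 fold changes were −1.99 for Dtx1 (SE 0.13, adjusted p = 4.28e-08), −0.99 for Maml2 (SE 0.10, adjusted p = 4.43e-06), −0.78 for Notch2 (SE 0.12, adjusted p = 0.00024) and −0.45 for Rbpj (SE 0.12, adjusted p = 0.013). Hes1 (−0.49, SE 0.19, edgeR adjusted p = 0.081) and Notch1 (0.69, SE 0.30, edgeR adjusted p = 0.11) did not pass. Rbpj lost its call without the Chow library (-0.43, edgeR adjusted p = 0.11) or without the MASH library (-0.45, edgeR adjusted p = 0.13). Taking subsets from sub-clusters in place of gates gave Hes1 a log2 fold change of 0.30 in transitional over follicular cells, the opposite sign.

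B1 cells, an innate-like B lineage that renews itself outside the follicle, were gated on Bhlhe41, Zbtb32 and Cd5 and numbered 32 MASH-Phe-free, 66 MASH and 29 Chow cells. Of 6 members 4 were lower in B1 than in follicular cells, beside 13.7% of genes, and 1 was higher, beside 14.9%. The lower ones were Hes1 (log2 fold change −1.93, SE 0.35, edgeR adjusted p = 0.00063), Maml2 (−1.27, SE 0.11, edgeR adjusted p = 3.53e-07), Notch2 (−1.16, SE 0.14, edgeR adjusted p = 1.77e-05) and Dtx1 (−0.45, SE 0.12, edgeR adjusted p = 0.012). Rbpj was the higher one, at 59.4, 48.8 and 43.1 CPM in B1 cells against 30.7, 33.5 and 35.0 CPM in follicular cells (log2 fold change 0.66, SE 0.13, edgeR adjusted p = 0.0013). Germinal centre cells, the dividing B cells of an antibody response, numbered 38, 24 and 35. There 4 of 6 members were lower than in follicular cells, beside 13.2% of genes, and 0 were higher, beside 15%. Maml2 fell by 2.14 (SE 0.12, edgeR adjusted p = 9.4e-09) and Notch2 by 1.86 (SE 0.18, edgeR adjusted p = 1.72e-06) on the log2 scale. Hes1 fell by 1.45 (SE 0.39, edgeR adjusted p = 0.012) and Dtx1 by 0.64 (SE 0.14, edgeR adjusted p = 0.0023) on that scale. The direction of Dtx1 in B1 and germinal centre cells depended on how subsets were drawn: taken from sub-clusters, its log2 fold change over follicular cells was 0.70 (edgeR adjusted p = 0.00013) in B1 and 0.99 (edgeR adjusted p = 3.41e-05) in germinal centre cells. Under a stricter cell filter 2 members, not 4, passed the test in germinal centre cells, where Hes1 lost the call in 4 of 14 alternatives, with a log2 fold change of -0.14 when subsets came from sub-clusters. Among those 4 were the fits without the Chow library (-1.28, edgeR adjusted p = 0.053) and without the MASH library (-1.43, edgeR adjusted p = 0.054). Dtx1 in germinal centre cells lost it under the stricter cell filter (-0.33, edgeR adjusted p = 0.55). In B1 cells Dtx1 stayed lower but lost the call without the MASH library, without the MASH-Phe-free library, with gates of 2 UMIs and under the stricter cell filter, at edgeR adjusted p = 0.076, 0.12, 0.16 and 0.099 in that order.

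Counted cell by cell, Dtx1 RNA was also found in a larger share of marginal zone cells. After each cell was thinned to 2000 UMIs, which left out 0 cells of either gate, 51.4%, 49.8% and 51.6% of marginal zone cells held a Dtx1 UMI in the MASH-Phe-free, MASH and Chow libraries, against 21.1%, 19.0% and 18.1% of follicular cells. Erythroid-like cells, which should lack Dtx1, held one in 1.83%, 1.15% and 1.15% of cells at that depth, with 167, 159 and 26 shallower cells left out. Hes1 was found in 8.30%, 11.6% and 12.3% of thinned marginal zone cells, against 6.29%, 5.21% and 5.25% of follicular cells, with 0.731%, 0.460% and 1.15% in erythroid-like cells. Without thinning, Dtx1 was found in 89.1%, 87.1% and 90.3% of marginal zone cells (median 10638 to 11553 UMIs per cell), against 46.3%, 41.9% and 38.7% of follicular cells (median 7222 to 7844.5 UMIs per cell). The unthinned share in erythroid-like cells was 4.06%, 4.47% and 2.65%. Notch2 was found in 25.4%, 26.2% and 25.4% of thinned marginal zone cells and in 23.5%, 26.0% and 24.6% of thinned follicular cells.

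Within the follicular gate, Dtx1 was higher in cells that also held a Hes1 UMI. Follicular cells with Hes1 had Dtx1 at 267, 284 and 281 CPM in the MASH-Phe-free, MASH and Chow libraries, against 135, 114 and 107 CPM in follicular cells without. The ratio was 1.97 (95% counting interval 1.81 to 2.15), 2.49 (2.32 to 2.67) and 2.64 (2.44 to 2.85). In the marginal zone gate the same ratio was smaller, at 1.28, 1.23 and 1.22, with every counting interval above 1. Maml2 was also higher in follicular cells with Hes1, at ratios of 1.31, 1.26 and 1.34 with every interval above 1, and in the marginal zone gate at 1.07, 1.05 and 1.07. For Notch2 the ratio between follicular cells with and without Hes1 was 0.995, 1.04 and 1.04, and every interval included 1. Follicular cells with a Hes1 UMI were deeper, with a median of 8425, 9496 and 8939 UMIs against 6999, 7549 and 7231 in those without, and the part of depth in these ratios was not tested beyond the scaling to CPM. The follicular gate also mixed sub-clusters, with 442 of its cells in marginal zone B-like and 1646 in unnamed ones. The part of this mixture in the ratios was not tested.

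**Figure D2:**
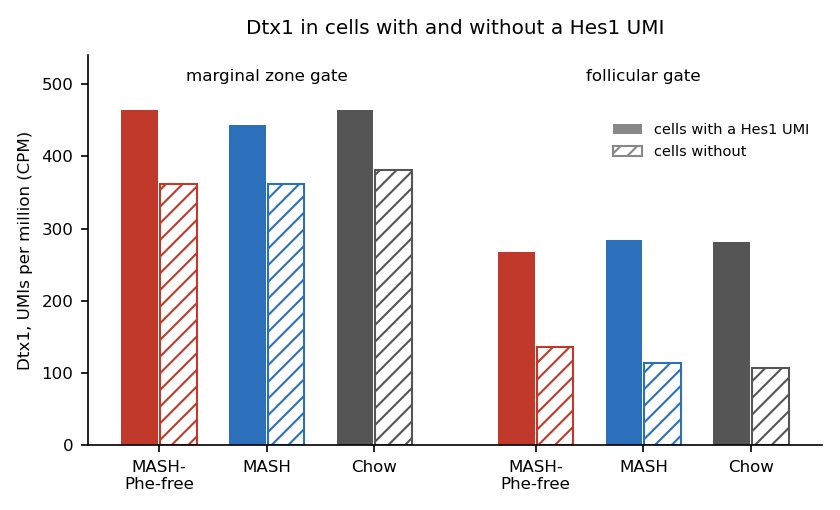
Level of Dtx1 (CPM, vertical axis from 0) in cells with a Hes1 UMI (filled bars) and without (hatched bars), in the marginal zone gate and the follicular gate of each library. In follicular cells the filled bars, at 267 to 284 CPM, stand above the hatched ones, at 107 to 135 CPM. Each bar is 1 sum over cells and has no replicate error.

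Sub-clusters of the B-like cells, made without any gene of the Notch pathway list, spread out along the same 2 response genes. The sub-clusters came from the same cells, so these levels are a description without a test. A marginal zone B-like sub-cluster led by Ackr3, Ube2e2 and Asb2 had Dtx1 at 486, 434 and 461 CPM and Hes1 at 63.6, 71.1 and 74.0 CPM in the MASH-Phe-free, MASH and Chow libraries. An unnamed sub-cluster of 432, 510 and 759 cells had Hes1 and Dtx1 themselves among its leading genes, after the fatty acid receptor gene Ffar2. It held Dtx1 at 365, 344 and 402 CPM and Hes1 at 65.5, 69.5 and 79.1 CPM. This sub-cluster also carried Cr2 at 2158, 2198 and 2028 CPM and the follicular marker Fcer2a at 199.99, 212 and 123 CPM. Of the cells of the follicular gate, 11.9%, 11.5% and 11.2% lay in it. Both follicular B-like sub-clusters with Rflnb, Cpne4 and Cd55 among their leading genes had Dtx1 between 61.3 and 85.4 CPM, and a transitional B-like one had 25.4 to 36.8 CPM. The remaining follicular B-like sub-cluster, led by immunoglobulin variable genes, stood higher. Its Dtx1 was at 188, 163 and 142 CPM and its Hes1 at 47.0, 58.2 and 38.8 CPM in the MASH-Phe-free, MASH and Chow libraries.

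**Figure D3:**
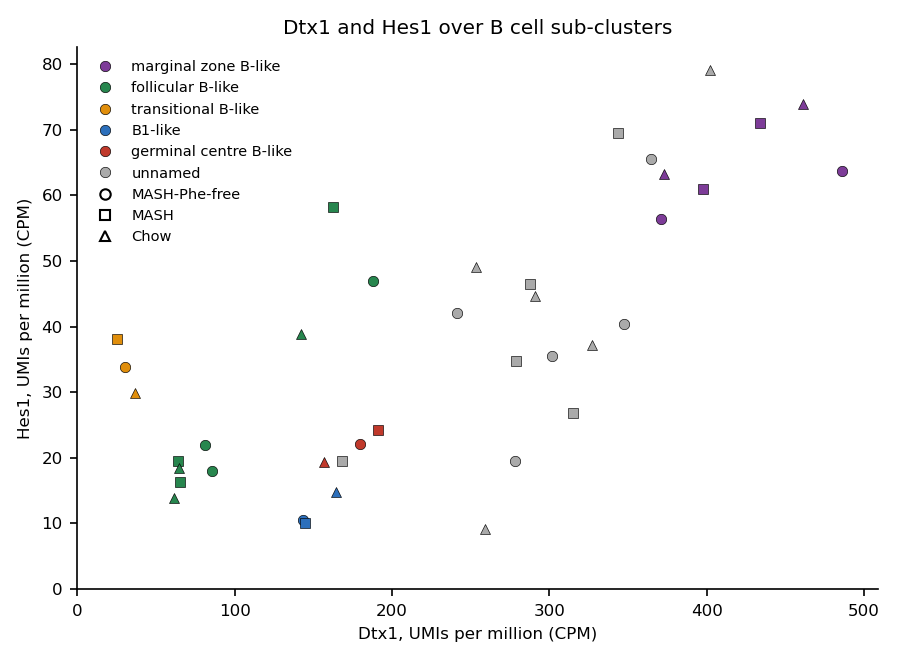
Dtx1 (horizontal) against Hes1 (vertical), both in CPM, for B cell sub-clusters with at least 50 cells in every library. Each point is 1 sub-cluster in 1 library, colour gives its name and shape its library. Marginal zone B-like points lie at 371 CPM of Dtx1 or above, and the follicular and transitional ones at 188 CPM or below.

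Between libraries the members differed little in either gate. The threshold was a ratio of CPM of 1.5 or its inverse with at least 50 UMIs in the pair. For MASH over Chow 0 of 6 measured members passed it in marginal zone cells, beside 2.76% of genes higher and 2.88% lower, and 0 of 7 in follicular cells, beside 2.91% and 2.25%. For MASH-Phe-free over MASH none passed either, beside 1.47% and 2.23% in marginal zone cells and 1.03% and 2.38% in follicular cells. For MASH-Phe-free over Chow the count was again 0 in both gates, beside 2.35% and 3.34%, and 1.76% and 3.17%. These are ratios of single libraries, and their 95% intervals cover counting error only.

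Hes1 moved farthest in marginal zone cells. The 50.6 CPM of the MASH-Phe-free library and 56.1 CPM of the MASH library stood below the 66.7 CPM of Chow, which gave a ratio of 0.759 (0.681 to 0.846) for MASH-Phe-free over Chow and 0.841 (0.761 to 0.929) for MASH over Chow. In follicular cells the Hes1 ratio of MASH-Phe-free over Chow was 1.13 (1.01 to 1.28), the opposite side of 1. Dtx1 was likewise below Chow in marginal zone cells, with ratios of 0.952 (0.914 to 0.990) for MASH-Phe-free and 0.944 (0.908 to 0.980) for MASH. In follicular cells it was above Chow, with ratios of 1.16 (1.10 to 1.23) for MASH-Phe-free and 1.07 (1.02 to 1.13) for MASH. Notch2 in marginal zone cells had a ratio of 0.9999 (0.936 to 1.07) for MASH-Phe-free over Chow and 0.986 (0.926 to 1.05) for MASH over Chow. Maml2 in marginal zone cells was at 0.876 (0.852 to 0.902) of Chow in MASH-Phe-free and 0.887 (0.863 to 0.911) in MASH.

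**Figure D4:**
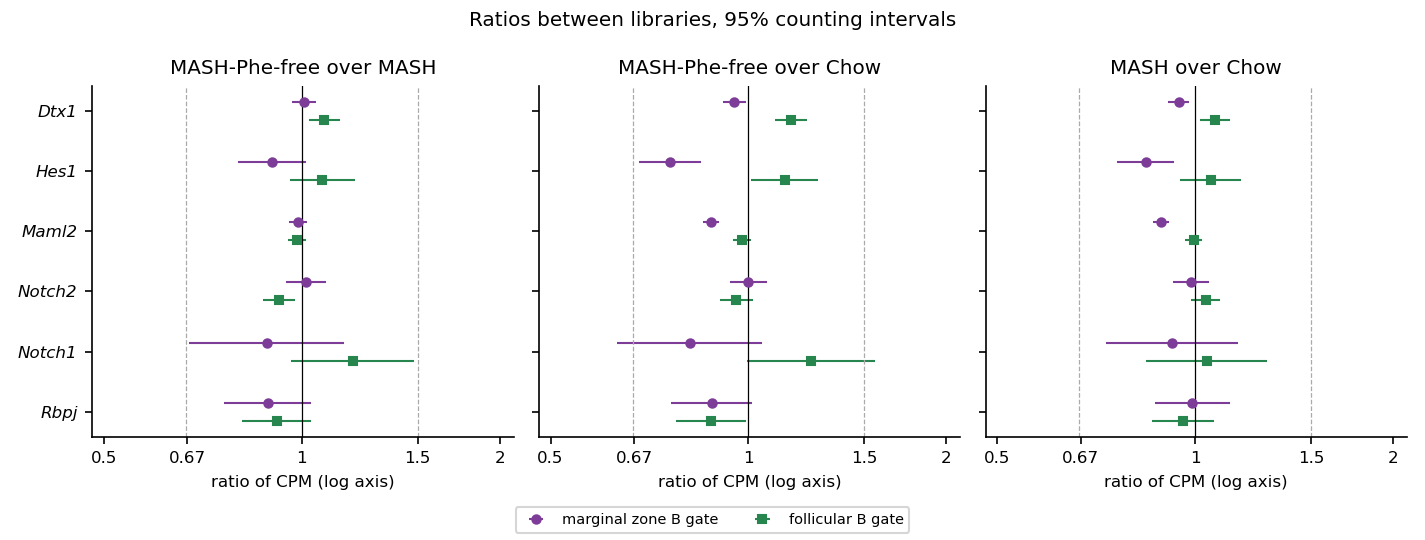
Ratio of CPM between libraries (log axis) for 6 Notch genes in the marginal zone gate (circles) and the follicular gate (squares), with 95% counting intervals. Solid lines mark 1 and dashed lines 1.5 and its inverse. No point lies beyond the dashed lines, and for Hes1 and Dtx1 of MASH-Phe-free over Chow the circle and the square lie on opposite sides of 1.

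The shares of the gates that lay in each sub-cluster differed between libraries, so the same ratios were taken over whole sub-clusters. Each such sum holds all B-like cells of a sub-cluster, gated or not. The unnamed one led by Ffar2 had 432 MASH-Phe-free, 510 MASH and 759 Chow cells. Of these, 71, 108 and 256 lay in the marginal zone gate and 216, 281 and 266 in the follicular gate. Of the marginal zone gate 30.8% of MASH-Phe-free, 28.3% of MASH and 41.7% of Chow cells lay in the sub-cluster led by Ackr3, and 31.6%, 33.8% and 10% in a second one led by Ly6a, Ifi44 and Ifit3. Hes1 for MASH-Phe-free over Chow was 0.860 (0.746 to 0.991) inside the one led by Ackr3, 0.891 (0.739 to 1.08) inside the one led by Ly6a and 0.829 (0.716 to 0.957) inside the unnamed one that Ffar2 led. All 3 ratios were below 1, as in the gate, with smaller differences. For MASH over Chow they were 0.961 (0.845 to 1.09), 0.963 (0.809 to 1.15) and 0.878 (0.771 to 1.0001), and every interval included 1. Notch2, whose gate ratios lay near 1, was above Chow inside both marginal zone B-like sub-clusters. It was at 1.12 (1.03 to 1.22) and 1.14 (1.001 to 1.29) for MASH-Phe-free over Chow, with the one led by Ackr3 given first. For MASH over Chow it was at 1.13 (1.04 to 1.23) and 1.19 (1.06 to 1.35) in the same order. In the one led by Ffar2 Notch2 was at 1.03 (0.933 to 1.13) for MASH-Phe-free over Chow. There it was at 0.997 (0.913 to 1.09) for MASH over Chow. For MASH-Phe-free over Chow Maml2 lost its difference inside the sub-clusters led by Ackr3, Ly6a and Ffar2, with ratios of 0.966 (0.932 to 1.001), 1.01 (0.955 to 1.07) and 1.0001 (0.958 to 1.04). For MASH over Chow its ratios in that order were 0.988 (0.956 to 1.02), 1.06 (1.006 to 1.12) and 0.973 (0.935 to 1.01). The one led by Ly6a was thus above Chow, the opposite side to the gate. Notch1 was past the threshold inside the one led by Ly6a. It was at 0.530 (0.346 to 0.813) for MASH-Phe-free over Chow, on 49 and 45 UMIs. For MASH-Phe-free over MASH it was at 0.656 (0.458 to 0.931), on 49 and 104 UMIs. In the ones led by Ackr3 and Ffar2 the Notch1 ratios were 1.02 and 1.24 over Chow and 1.16 and 0.922 over MASH. Each of those intervals included 1. Of the follicular gate 33.1%, 30.8% and 11.1% lay in the sub-cluster led by Fcer2a, 8.99%, 13.1% and 31.1% in the one led by Rflnb, and 14.2%, 9.28% and 16.1% in one led by immunoglobulin variable genes. Dtx1 for MASH-Phe-free over Chow was 1.26 (1.04 to 1.54), 1.39 (1.12 to 1.72) and 1.32 (1.16 to 1.501) inside these 3 sub-clusters, each above the ratio of the whole gate. For MASH over Chow it was 0.992 (0.818 to 1.21), 1.06 (0.889 to 1.27) and 1.14 (0.993 to 1.31), every interval including 1. With subsets taken from sub-clusters its log2 ratio was -0.064, the opposite sign to the gate. Notch2 in the same order was 1.21 (1.05 to 1.39), 1.17 (1.02 to 1.33) and 1.01 (0.856 to 1.19) for MASH-Phe-free over Chow. For MASH over Chow Notch2 was 1.14 (0.994 to 1.30), 1.13 (1.02 to 1.25) and 1.15 (0.971 to 1.35). Hes1 for MASH-Phe-free over Chow was 1.19 (0.822 to 1.74), 1.29 (0.787 to 2.04) and 1.21 (0.933 to 1.56), every interval including 1. Haemoglobin RNA stood at 49.1, 164 and 24.3 CPM in the marginal zone gate and at 101, 212 and 9.73 CPM in the follicular gate, and RNA of 10 pancreatic enzyme genes at 12.0, 3.67 and 72.3 CPM and 2.34, 0.485 and 45.5 CPM. Leaving out the cluster led by pancreatic enzyme genes moved no member past 1.5. Scaling to CPM without immunoglobulin, haemoglobin, mitochondrial and ribosomal genes moved none past it either. Apart from this scaling, the part of RNA from erythroid cells in the ratios was not tested.

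Across the spleen the receptors and the response genes were highest in different cells. Among 18 classes with at least 50 cells in every library, mature neutrophil-like cells had the highest level of Notch2, at 328, 353 and 369 CPM in MASH-Phe-free, MASH and Chow. Nonclassical monocyte-like cells, the patrolling monocytes that are known to depend on Notch2, followed at 212, 234 and 215 CPM, and classical monocyte-like cells at 168, 166 and 172 CPM. These 3 ranges did not overlap, whereas those of the next 3 classes, marginal zone, follicular and red pulp macrophage-like, overlapped from one to the next. Notch1 was also highest in mature neutrophil-like cells, at 132, 142 and 131 CPM. Regulatory T-like cells had 64.3, 79.0 and 83.2 CPM of Notch1 and CD8 T-like cells 68.7, 71.5 and 76.3 CPM, and their ranges overlapped.

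Neutrophils with the highest receptor levels had almost none of the response genes. Mature neutrophil-like cells had Dtx1 at 3.16, 1.49 and 5.98 CPM and Hes1 at 6.31, 2.08 and 2.79 CPM. Plasmacytoid dendritic-like cells, 46, 26 and 32 in number, had Notch1 at 130.1, 98.1 and 156 CPM and no UMI of Dtx1 or Hes1, which allows up to 5.35, 8.18 and 7.10 CPM of either. Plasma-like cells had the lowest Notch2 of the 18 classes, at 4.43, 3.65 and 6.15 CPM.

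Dtx1 and Hes1 also parted from each other outside the B cells. Dtx1 was at 107, 121 and 104 CPM in CD8 T-like cells and at 91.2, 101 and 79.1 CPM in CD4 T-like cells, with Hes1 at 1.27, 0.974 and 0.850 CPM and at 0.633, 0.694 and 1.30 CPM. Summed RNA of 10 B cell markers in these T-like classes was 137 to 434 CPM, against 11160 to 12577 CPM in the 2 gates, all 10 markers being above 0. Nonclassical monocyte-like cells showed the reverse, with the highest Hes1 of the 18 classes, at 65.4, 60.7 and 80.6 CPM, and Dtx1 at 2.69, 2.60 and 7.48 CPM. Their Hes1 range overlapped that of the next class, the marginal zone gate. Red pulp macrophage-like cells, which recycle iron from old red cells, had Hes1 at 49.3, 52.8 and 60.5 CPM, a range that overlapped that of the marginal zone gate. Megakaryocyte- and platelet-like barcodes had Dtx1 at 151.5, 156 and 109.7 CPM, but their B cell marker RNA stood at 7429, 7872 and 5282 CPM with all 10 markers above 0, and its part in that level was not tested.

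**Figure D5:**
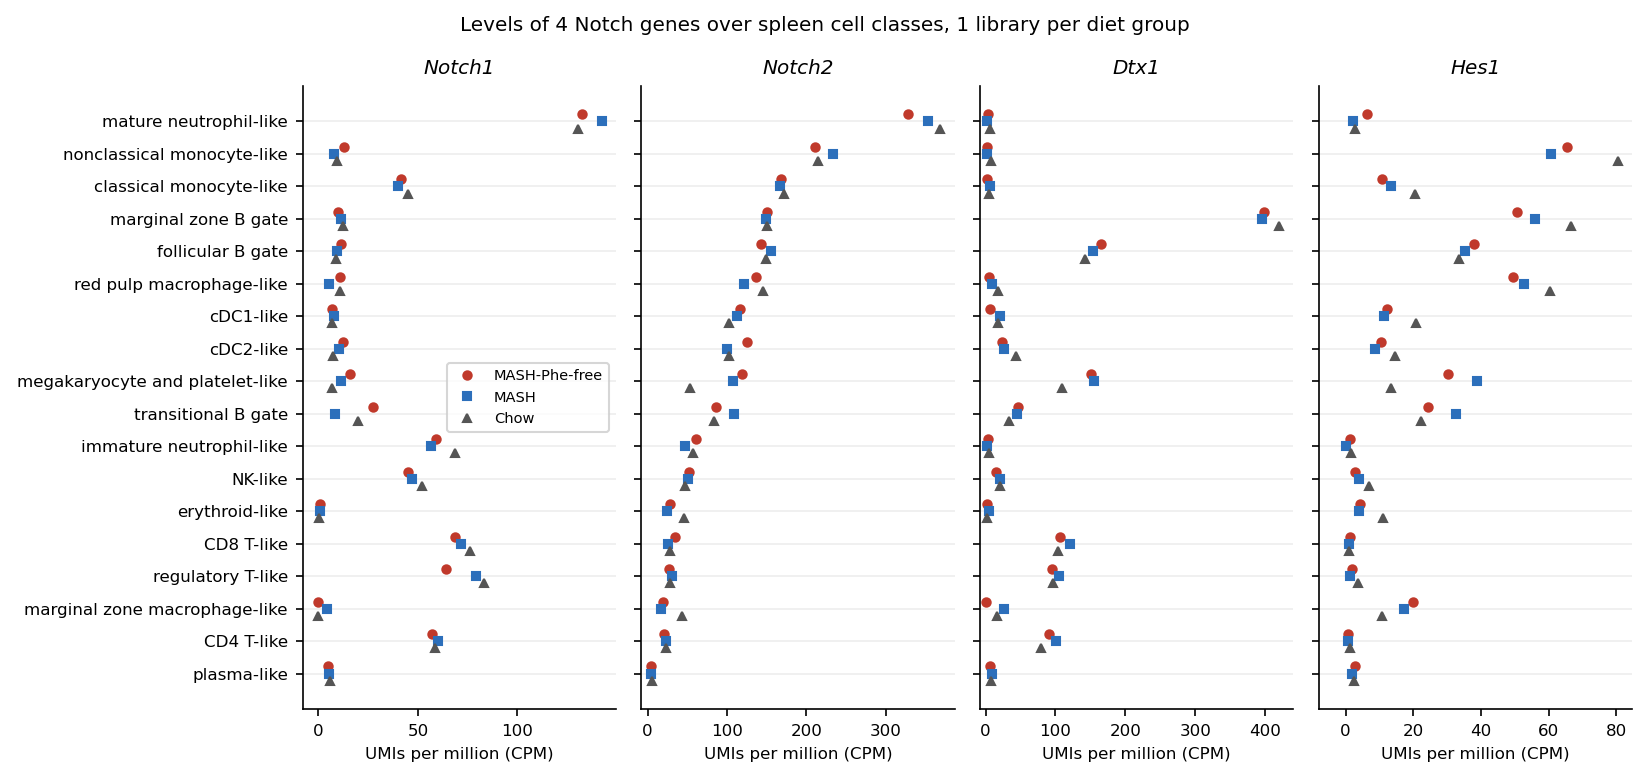
Level of Notch1, Notch2, Dtx1 and Hes1 (CPM, horizontal axes) in 18 spleen cell classes with at least 50 cells in every library. Each point is 1 library. Notch2 and Notch1 are highest in mature neutrophil-like cells, Dtx1 in the marginal zone gate and Hes1 in nonclassical monocyte-like cells. The Hes1 range of these monocyte-like cells overlaps that of the marginal zone gate.

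The nuclear factors and the ligand had other peaks. Rbpj, which also binds DNA with corepressors when no Notch signal is present, was highest in the dendritic cells. It was at 149.6, 157 and 121 CPM in cDC1-like cells, the cross-presenting dendritic cells, and at 96.9, 96.0 and 74.2 CPM in cDC2-like cells, whose splenic subset is known to need Notch2. Among the 18 classes Maml2 was highest in the marginal zone gate, above follicular cells without overlap. Dll1 was near 0 in most classes and had its highest mean in follicular cells, at 2.69, 2.86 and 3.07 CPM. That range overlapped those of megakaryocyte- and platelet-like barcodes (0, 3.71 and 3.32 CPM on 3 UMIs in all) and marginal zone macrophage-like cells (0, 0 and 5.40 CPM on 1 UMI). Endothelial-like cells, 20, 21 and 26 in number, held 0, 3 and 29 Dll1 UMIs, but 27 of the 29 in the Chow library came from 1 cell. Fibroblast-like stromal cells, known to carry Dll1 in spleen, were not analysed here.

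Over 17 classes with at least 1 member measured, ratios past 1.5 were mainly downward against Chow. For MASH over Chow 12 of 86 member values were lower past the threshold (14.0%) and 4 higher (4.65%), beside 6.38% of gene values lower and 4.62% higher. For MASH-Phe-free over Chow 11 of 85 were lower (12.9%) and 3 higher (3.53%), beside 5.18% and 3.87%. For MASH-Phe-free over MASH 5 of 86 were lower (5.81%) and 2 higher (2.33%), beside 4.28% and 4.37%. The values of 1 class share their cells and both comparisons with Chow share that library, so these counts are not independent. The 4 higher values of MASH over Chow were Dtx1 (2.42, on 109 and 9 UMIs) and Maml2 (2.14) in erythroid-like cells, and Notch2 (2.02) and Maml2 (1.90) in megakaryocyte- and platelet-like barcodes. For MASH-Phe-free over Chow Notch2 (2.25) and Maml2 (1.80) in the last class were higher too, beside Notch1 in cDC2-like cells, whose counting interval included 1. Over all genes of that last class 21.4% were higher and 15% lower for MASH over Chow, and 11.8% and 13.8% for MASH-Phe-free over Chow. In erythroid-like cells 8.15% were higher and 17.5% lower for MASH over Chow. B cell marker RNA in the megakaryocyte- and platelet-like barcodes was also above Chow (5282 CPM) in MASH (7872 CPM) and MASH-Phe-free (7429 CPM), and its part was not tested.

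In classical monocyte-like cells Hes1 was at 10.9, 13.3 and 20.5 CPM in the MASH-Phe-free, MASH and Chow libraries. Its ratio was 0.530 (0.417 to 0.673) for MASH-Phe-free over Chow and 0.651 (0.512 to 0.827) for MASH over Chow, while Notch2 in the same cells was at 168, 166 and 172 CPM. Lower values past 1.5 there numbered 2 of 6 members in each comparison with Chow, beside 4.68% and 4.46% of genes, and 0 were higher, beside 2.65% and 4.01%. In cDC2-like cells Dtx1 was at 24.0, 27.0 and 43.8 CPM and Hes1 at 10.4, 8.73 and 14.6 CPM. The Dtx1 ratio was 0.548 (0.407 to 0.735) for MASH-Phe-free over Chow and 0.616 (0.468 to 0.810) for MASH over Chow, and members lower past 1.5 numbered 1 and 2 of 6, beside 6.72% and 4.37% of genes. Members higher numbered 1 and 0, beside 4.72% and 4.52%, the 1 being Notch1 on 42 MASH-Phe-free and 19 Chow UMIs. The counting interval of that Notch1 ratio included 1. B cell marker RNA in cDC2-like cells moved the same way, at 178, 160.0 and 299 CPM, and its part in the Dtx1 difference was not tested. In classical monocyte-like cells it stood at 99.2, 212 and 133 CPM.

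Red pulp macrophage-like cells had Maml2 at 171, 148 and 286 CPM, with a ratio of 0.596 (0.548 to 0.647) for MASH-Phe-free over Chow and 0.518 (0.475 to 0.566) for MASH over Chow. Members lower past 1.5 there numbered 2 and 3 of 6 in those comparisons, beside 7.11% and 10.9% of genes, and 0 were higher, beside 4.23% and 3.65%. Of the 3 clusters in this class, 1 of deep cells (median 11715 to 12248 UMIs) held most of the Maml2, at 493, 474 and 666 CPM, and gave 31.5%, 26.4% and 36.8% of the UMIs of the class. Dtx1 in the class was at 5.29, 9.75 and 17.5 CPM, and B cell marker RNA at 260.3, 237 and 525 CPM. The part of cluster shares and of B cell RNA in these ratios was not tested.

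Among 67 other genes of the pathway, 45 passed the filter in the B subsets, and edgeR called 7 higher and 4 lower in marginal zone than in follicular cells, beside 13.4% higher and 10.6% lower over all genes tested, so the list stood near the background. Their median log2 fold change was 0.00, beside 0.01 over all genes tested. No receptor or ligand of the list passed the filter, and of the 8 cleavage genes measured 0 were called. Of the ligand endocytosis genes Neurl3 was at 37.9, 54.7 and 43.7 CPM in marginal zone cells of the MASH-Phe-free, MASH and Chow libraries, against 125, 149 and 137 CPM in follicular cells (log2 fold change −1.57, SE 0.11, edgeR adjusted p = 3.53e-08). Lfng, a glycosyltransferase that tunes the ligand preference of Notch receptors, was lower, with a log2 fold change of −0.81 (SE 0.20, edgeR adjusted p = 0.0079), and lost the call in 1 of 14 alternatives. The coactivator Maml3 ran against its relative Maml2, at 23.8, 24.6 and 45.2 CPM in marginal zone cells against 63.9, 67.5 and 87.1 CPM in follicular cells (log2 fold change −1.21, SE 0.11, edgeR adjusted p = 9.82e-07). Among corepressors Tle1 was lower (−1.43, SE 0.28, edgeR adjusted p = 0.0012) and Tle3 higher (0.61, SE 0.07, edgeR adjusted p = 6.95e-06). Dtx4 (1.04, SE 0.25, edgeR adjusted p = 0.0063) and Dtx3 (0.41, SE 0.07, edgeR adjusted p = 0.00038), relatives of Dtx1, were higher, as was the acetyltransferase gene Kat2a (0.41, SE 0.12, edgeR adjusted p = 0.022), which lost it in 3 of 14. Myc, a growth regulator and Notch target in T cells, was at 122, 135 and 151 CPM in marginal zone cells against 67.8, 62.8 and 74.8 CPM in follicular cells (log2 fold change 1.02, SE 0.10, edgeR adjusted p = 2.02e-06).

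Between libraries Maml3 was the pathway gene that moved farthest on high counts. In marginal zone cells its ratio was 0.526 (0.452 to 0.611) for MASH-Phe-free over Chow and 0.545 (0.473 to 0.627) for MASH over Chow. Pathway genes were counted here if past 1.5 with an interval that excluded 1. In those cells 4 of 47 measured pathway genes were lower for MASH-Phe-free over Chow and 1 of 47 for MASH over Chow, and 0 were higher. Over all genes, counted past 1.5 whatever their interval, 3.34% were lower and 2.35% higher for MASH-Phe-free over Chow, and 2.88% and 2.76% for MASH over Chow. The pathway counts thus met a stricter rule than these shares. Tle1 was lower for MASH-Phe-free over Chow in marginal zone cells (0.287, 0.136 to 0.550, with 11 and 61 UMIs) and in follicular cells (0.637, 0.479 to 0.840). Lfng in marginal zone cells was at 0.662 (0.484 to 0.898) for MASH-Phe-free over MASH. Neurl1a in follicular cells was at 0.399 (0.203 to 0.737) for MASH-Phe-free over Chow and 0.468 (0.274 to 0.781) for MASH over Chow, on 14, 24 and 47 UMIs.

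The genes whose levels ran most like those of the members over 54 sums of 18 classes in 3 libraries were found by Pearson's r of log2 of CPM plus 10, among 9787 genes. They are a description, since sums of 1 library share their preparation and depth. For Notch2 these were Nrros (r = 0.925), Nuak2 (0.898) and Wdfy2 (0.875). For Notch1 they were Tmem71 (0.926), Glipr2 (0.904) and Ipcef1 (0.901). For Dtx1 they were Chst10 (0.916), the lymphotoxin gene Lta (0.913) and A930005H10Rik (0.912), and for Hes1 Nlrc4 (0.881), Ptprj (0.858) and Cd180 (0.853).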

How the data were processed

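Single-cell RNA of spleen was counted in 3 libraries, 1 per group. Per the file headers, the deposited matrices hold UMI counts, whole numbers for each pair of gene and barcode, with gene identifiers and symbols beside them. Per the submitters' processing notes, Cell Ranger 9.0.1, Seurat 5.3.0 and genome GRCm39 (mm39) were used; their settings are not given in the sources used here. Every library's lowest barcode held 500 UMIs.

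Barcodes with at least 300 genes, 500 UMIs and at most 10% mitochondrial UMIs were kept. Scrublet removed 285 MASH-Phe-free, 321 MASH and 337 Chow barcodes as doublets (1.80%, 1.82% and 2.11%), which left 15579, 17330 and 15647 cells. Cells were clustered with scanpy 1.11.5 (Leiden, resolution 1.0, 2000 variable genes, 30 components, 15 neighbours), and the variable genes excluded those of the Notch pathway, haemoglobin, antigen receptors, ribosomes and mitochondria and a few sex-linked ones. A cluster was named by marker lists (mean log2 fold of its 5 leading markers at least 1.5, at least 3 higher), and B-like clusters were divided again. Rebuilt names may differ from the study's. B subsets were gated in cells of at least 2000 UMIs. Of gated cells, 3.19% to 4.78% (marginal zone) and 18.6% to 25.1% (follicular) held 1 UMI of Cr2 or Fcer2a, the gate gene.

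Counts were summed per class and library. Subsets were compared with edgeR 4.0.16 (R 4.3.3; TMM, quasi-likelihood, filterByExpr, library as block, Benjamini-Hochberg adjustment, threshold 0.05). The steps were tested on simulated data. Levels carry exact Poisson and ratios exact conditional Poisson 95% intervals, and shares Clopper-Pearson ones; all cover counting error only, as do limits from 3 counts. Named pathway genes were up to 5 called in each direction by size, and between libraries up to 2 in each direction past 1.5 with an interval that excluded 1 and at least 50 UMIs. Genes of like pattern were the 3 of highest r with at least 30 CPM in 1 sum. The members, lists and tests were chosen with earlier results of these data known. Alternatives included DESeq2 1.42.0, other filters, gates and scalings.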

Additional observations from a re-analysis of the deposited data

Results flagged for a closer look

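For 2 members the marginal zone and the follicular gate moved to opposite sides of 1 between the same libraries, with both counting intervals excluding 1. Hes1 for MASH-Phe-free over Chow was 0.759 in the marginal zone gate and 1.13 in the follicular gate. Dtx1 for MASH-Phe-free over Chow was 0.952 in the marginal zone gate and 1.16 in the follicular gate, and for MASH over Chow 0.944 and 1.07. The difference between the gates was not tested, since each group has 1 library. Inside marginal zone B-like sub-clusters the Dtx1 ratio of MASH-Phe-free over Chow was 1.05 (0.999 to 1.11) in the one led by Ackr3. It was 0.996 (0.924 to 1.07) in the one led by Ly6a and 0.906 (0.852 to 0.964) in the unnamed one led by Ffar2. Hes1 for the same libraries in follicular B-like sub-clusters was 1.19 (0.822 to 1.74) in the one led by Fcer2a. It was 1.29 (0.787 to 2.04) in the one led by Rflnb and 1.21 (0.933 to 1.56) in the one led by immunoglobulin variable genes. Each of these Hes1 intervals included 1.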

How the results depend on the processing

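Dtx1, Hes1 and Maml2 stayed higher in marginal zone than in follicular cells, past the threshold, under all 14 alternatives, and Notch2, Notch1 and Rbpj passed under none. The log2 fold change ranged from 1.34 to 2.21 for Dtx1, 0.56 to 1.39 for Hes1 and 0.63 to 0.98 for Maml2. Drawing subsets from sub-clusters reversed Hes1 in transitional (0.30), Dtx1 in B1 (0.70) and Dtx1 in germinal centre cells (0.99) over follicular cells, and turned the log2 ratio of follicular Dtx1 for MASH over Chow to -0.064; the cause was not tested. The stricter cell filter left 2 of 4 members called in germinal centre cells. Of the single fold changes 436 kept direction and call under an alternative, 15 lost and 6 gained the call; of the ratios between libraries 339 stayed within their counting interval and 11 moved. No member passed 1.5 between libraries in either gate under any alternative, and each member kept its highest class at resolution 0.5 and with doublets kept. Inside the single sub-cluster led by Ly6a, Notch1 was past the inverse of 1.5, at 0.530 for MASH-Phe-free over Chow. Members with a higher share of cells in the marginal zone gate numbered 4, and 3 to 6 under other depths. Leaving out the cluster led by pancreatic genes or the gated cells in B1-like sub-clusters was chosen after seeing the data. No paired analysis was possible because each group holds 1 library, as far as differences between groups go; the B subsets come from the same libraries and were fitted with the library as a block, and fits without it are among the alternatives. With 24 to 66 cells per library, germinal centre and B1 levels rest on few UMIs.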
